A study of Mus musculus with 18 samples.

Results

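The genes described here are 10 mouse genes of endoplasmic reticulum (ER) stress and the unfolded protein response: Hspa5, Hsp90b1, Calr, Pdia4, Dnajb9, Herpud1, Xbp1, Atf4, Ddit3 and Trib3. They were taken by symbol from the count files, which hold 23238 distinct gene symbols, and all 10 were found. Male C57BL/6 mice, 7 weeks old at the start, were dosed intranasally with phosphate-buffered saline (control) or with UPM, the urban particulate matter reference SRM 1648a, and hippocampus and cortex were taken for sequencing of mRNA 3′ ends. Short-term UPM was given daily for 3, 5 or 7 days, and long-term UPM 2 times per week for 3, 8, 12, 16 or 20 weeks. Each tissue thus had 1 control, 3 short-term and 5 long-term libraries, or 18 libraries in all. Each library was made from RNA that had been combined from several mice. Libraries of different times therefore stood in as replicates, and every p-value below measures the spread between pooled libraries, not between mice.

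Proteins that enter the ER are folded there by chaperones and by enzymes that form disulphide bonds. When unfolded protein accumulates, the membrane sensors IRE1, PERK and ATF6 are activated. IRE1 splices the Xbp1 mRNA, ATF6 is cleaved into a transcription factor, and PERK phosphorylates eIF2α, which lowers general translation and raises that of ATF4. The resulting factors induce chaperones, degradation components and, under prolonged stress, the pro-apoptotic factor CHOP, the product of Ddit3. Counts of 3′ ends, as used here, show neither the splicing of Xbp1 nor the translation of Atf4.

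Total counts were 5.43 to 8.97 M per library. The libraries fell into 2 sets that the column names in the files also separate by style: 3, 5 and 7 days and 3 weeks in both tissues (8 libraries, called the early set) and control and 8 to 20 weeks (10 libraries, called the control and late set). The ribosomal gene Rn45s took 14.8% to 18.6% of the reads counted in early libraries, against 7.75% to 12.9% elsewhere. A list of 6 nuclear and RNA quality genes summed to 3734 to 5067 CPM (counts scaled to the library total, as counts-per-million) in the hippocampal libraries of the early set and to 24198 to 26949 CPM in the other hippocampal libraries. In cortex these sums were 3208 to 6869 CPM and 13921 to 26954 CPM. The column names of 12, 16 and 20 weeks carry the number of weeks, whereas those of both 8-week libraries carry a 1, as the controls do, so the time of the 8-week libraries rests on the sample labels alone. Set and exposure time cannot be told apart, since every library of a time lies in 1 set, and both control libraries lie with the late ones.

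In the early set 6 of the 9 genes that could be tested were higher and 1 was lower. Pdia4 rose most, 2.64-fold on the means of all libraries, followed by Hsp90b1 and Dnajb9, while Hspa5, Calr and Xbp1 rose by smaller amounts and Atf4 fell. Ddit3 and Herpud1 did not pass the test. Of all 13864 genes tested in this comparison 39.6% were called in either direction, 20.4% higher and 19.2% lower, so the count of members stands against a background in which a large share of genes moved. The median log2 change of all genes was -0.00019. The test was edgeR's quasi-likelihood test with tissue as a covariate and Benjamini-Hochberg adjustment over all genes, with 0.05 as the threshold. Trib3 failed the filter on low counts in every comparison. Levels, as TMM-scaled CPM, are compared between libraries only, since counts of 3′ ends are no measure of one gene against another.

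**Figure D1:**
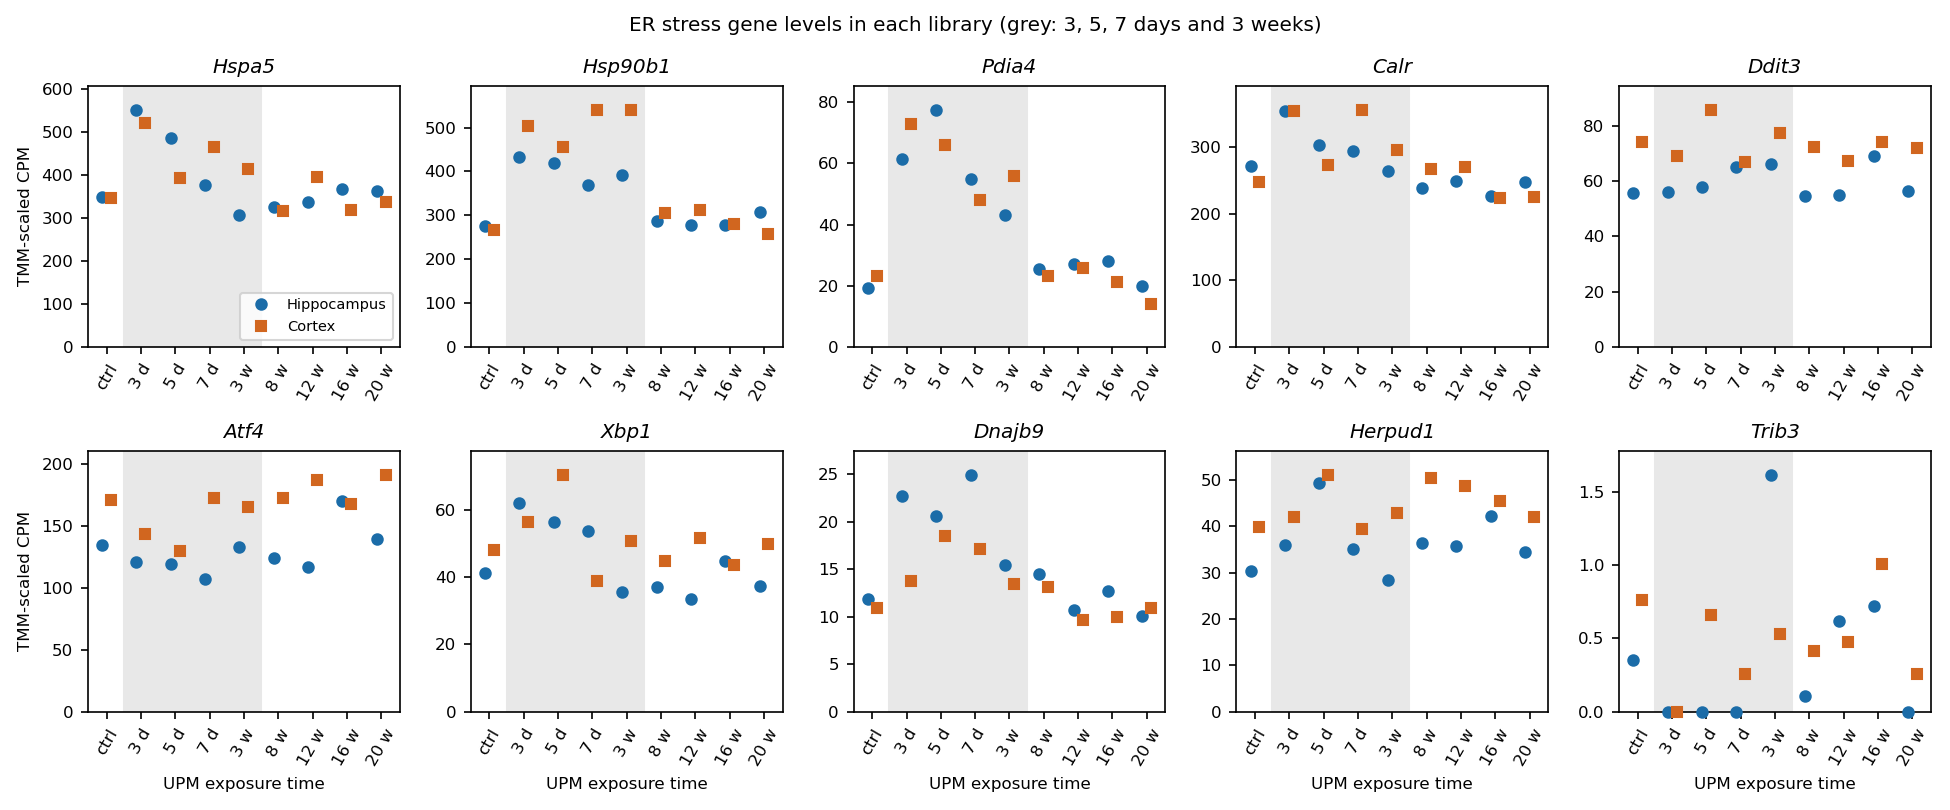
TMM-scaled CPM of the 10 genes (y axis, from 0) in each of the 18 libraries, by exposure time (x axis, d for days and w for weeks; ctrl, control), with circles for hippocampus, squares for cortex and grey behind 3, 5 and 7 days and 3 weeks. Each point is 1 pooled library, so there are no error bars; the grey points of Pdia4 (43.1 to 77.5 CPM) and Hsp90b1 (368 to 541 CPM) lie above all others of these genes.

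Pdia4 (ENSMUSG00000025823, chromosome 6, 47796141 to 47813430, minus strand, in GENCODE M21 on GRCm38, as for all gene positions here) encodes a protein disulphide isomerase of the ER lumen, also called ERp72. In hippocampus it was at 19.1 CPM in the control library, at 61.3, 77.5, 55.0 and 43.1 CPM at 3, 5 and 7 days and 3 weeks, and at 25.4, 27.1, 28.1 and 19.9 CPM at 8, 12, 16 and 20 weeks. The cortex had 23.1 CPM in the control library, then 72.9, 66.0, 48.2 and 56.0 CPM up to 3 weeks, and 23.3, 25.8, 21.1 and 14.1 CPM from 8 to 20 weeks. All 8 libraries of the early set lay above all 10 others, and the lowest library of all was the cortex at 20 weeks. The means were 59.99 ± 11.8 CPM (SD, n = 8) and 22.7 ± 4.26 CPM (SD, n = 10), and the fitted log2 difference was 1.40 ± 0.13 (SE; edgeR adjusted p = 8.3e-09). It was 1.29 ± 0.17 within hippocampus alone and 1.499 ± 0.16 within cortex alone (edgeR adjusted p = 0.000212 and 1.2e-05). In bulk tissue a lower level can come from fewer cells that make a transcript or from less of it per cell, and these cannot be told apart.

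Hsp90b1 (ENSMUSG00000020048, chromosome 10, 86690209 to 86705509, minus strand) encodes GRP94, the ER member of the Hsp90 chaperones. Its hippocampal level was 275 CPM in the control library, 433, 420.0, 368 and 391 CPM from 3 days to 3 weeks, and 287, 278, 277 and 308 CPM from 8 to 20 weeks. In cortex the control library had 267 CPM, the next 4 had 504, 456, 541 and 539 CPM, and those of 8 to 20 weeks 305, 313, 279.6 and 258 CPM. As for Pdia4, the early set did not overlap with the other libraries in either tissue, and the cortical libraries of the early set were all above the hippocampal ones. The fitted log2 difference between the sets was 0.67 ± 0.07 (edgeR adjusted p = 6.0e-08), with 0.49 ± 0.08 in hippocampus alone and 0.84 ± 0.09 in cortex alone. Annotated pseudogene and noncoding transcripts overlap Hsp90b1, and the strand setting of the counting is not given in the sources used here.

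Over both tissues, Pdia4 and Hsp90b1 were the 2 of 9 members whose early libraries lay above all others, against 4.46% of the 13940 genes with a mean of at least 1 CPM. Within hippocampus alone 3 of 9 members were separated in this way (Pdia4, Hsp90b1 and Dnajb9), against 10.8% of genes, and within cortex 4 of 9 (these and Calr), against 12.6%. No member was separated with the early libraries lowest, against 3.52% of genes over both tissues, 10% in hippocampus and 12% in cortex.

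Hspa5 (ENSMUSG00000026864, chromosome 2, 34771970 to 34777547, plus strand) encodes BiP, the Hsp70 chaperone of the ER, which also holds the stress sensors inactive. Hippocampal Hspa5 was at 349 CPM in the control library, at 552, 485 and 376 CPM at 3, 5 and 7 days, at 306 CPM at 3 weeks, and at 326, 337, 367 and 363 CPM from 8 to 20 weeks. The cortical values were 347 CPM in the control library, 521, 394 and 465 CPM at 3, 5 and 7 days, 415 CPM at 3 weeks, and 315, 396, 318 and 336 CPM afterwards. The hippocampal library of 3 weeks, unlike the cortical one, was the lowest of its tissue, so the sets overlapped in hippocampus. In cortex they overlapped only through the libraries of 5 days and 12 weeks. The log2 difference between the sets was 0.35 ± 0.09 (edgeR adjusted p = 0.0035), and within hippocampus alone it was 0.29 ± 0.14 and did not pass (edgeR adjusted p = 0.154).

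Calr (ENSMUSG00000003814, chromosome 8, 84841850 to 84846934, minus strand) encodes calreticulin, a calcium-binding chaperone of glycoproteins. Hippocampal libraries held 272 CPM in the control, 354, 304 and 294 CPM at 3, 5 and 7 days, 265 CPM at 3 weeks and 227 to 249.5 CPM from 8 to 20 weeks. Cortical libraries held 247 CPM in the control, 355, 273 and 356 CPM in the first week, 295 CPM at 3 weeks and 224 to 269.7 CPM afterwards. The sets were separated in cortex, and in hippocampus they overlapped because the 3-week library lay below the control. The log2 difference was 0.34 ± 0.07 (edgeR adjusted p = 0.000537). With libraries scaled by total counts alone, the calls for Calr, Hspa5 and Xbp1 were lost (edgeR adjusted p = 0.0949, 0.180 and 0.455), and those for Pdia4, Hsp90b1, Dnajb9 and Atf4 stood. That scaling moved the median of all genes in this comparison to -0.19.

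The promoters of these 4 genes are shown because the genes encode ER chaperones or folding enzymes that were all higher in the early set. The ER stress response element (ERSE), bound by NF-Y and by ATF6 or XBP1 in genes of this kind, was searched as CCAAT and CCACG with any 9 bases between them on both strands of the RefSeq promoter windows (250 bases before to 50 after the start, build GRCm38.p6). It was found in 0.119% of all 32851 windows. The stretches below are written 5′ to 3′ on the strand of the gene, with exact ERSE matches in capitals, and leave out bases that the GENCODE annotation places inside the gene, except for the 30 bases around the Hspa5 match. They lie at chr2:34772020-34772049 (Hspa5), chr10:86705510-86705694 (Hsp90b1), chr8:84846935-84847181 (Calr) and chr6:47813513-47813762 (Pdia4).
Hspa5: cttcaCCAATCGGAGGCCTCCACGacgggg
Hsp90b1: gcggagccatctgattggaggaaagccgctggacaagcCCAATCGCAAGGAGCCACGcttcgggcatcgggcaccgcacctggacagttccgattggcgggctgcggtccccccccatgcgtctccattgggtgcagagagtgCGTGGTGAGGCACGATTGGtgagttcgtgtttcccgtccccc
Calr: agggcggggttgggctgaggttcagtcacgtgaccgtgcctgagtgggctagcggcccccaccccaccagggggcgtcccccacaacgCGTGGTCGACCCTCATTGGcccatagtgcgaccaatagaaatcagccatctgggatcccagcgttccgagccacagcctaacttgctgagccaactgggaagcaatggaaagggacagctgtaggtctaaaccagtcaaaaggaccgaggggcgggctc
Pdia4: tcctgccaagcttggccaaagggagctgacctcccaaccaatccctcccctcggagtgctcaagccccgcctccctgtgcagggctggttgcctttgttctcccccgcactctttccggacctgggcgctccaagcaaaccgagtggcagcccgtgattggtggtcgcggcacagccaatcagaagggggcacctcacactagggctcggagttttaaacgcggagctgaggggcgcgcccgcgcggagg

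Hspa5 had 1 exact ERSE at -65 to -47 from the RefSeq start, Hsp90b1 had 2 (-212 to -194 on the strand of the gene and -107 to -89 on the opposite strand), and Calr had 1 on the opposite strand at -162 to -144. Pdia4, the gene with the largest difference, held no exact ERSE in this window; it held CCAAT on either strand 3 times, a motif found in 37.4% of windows, and the other element, CCACG (32.8% of windows), once, downstream of the start. No member held the unfolded protein response element searched as TGACGTGG, which 0.676% of windows had. A match is a string of letters and was not tested for binding, and a missing match says nothing about the factor.

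Dnajb9 (ENSMUSG00000014905, chromosome 12, 44205559 to 44210326, minus strand) encodes ERdj4, a cochaperone of BiP and a target of spliced XBP1. In hippocampus it was at 11.9 CPM in the control library, at 22.7, 20.6, 24.9 and 15.4 CPM from 3 days to 3 weeks, and at 14.5, 10.7, 12.7 and 10.01 CPM from 8 to 20 weeks. Cortical levels were 10.9 CPM in the control library, then 13.7, 18.5, 17.1 and 13.4 CPM, and 13.2, 9.69, 9.96 and 10.9 CPM from 8 to 20 weeks. Within each tissue the early libraries lay above all others, by a narrow margin at 3 weeks. The log2 difference between the sets was 0.66 ± 0.12 (edgeR adjusted p = 0.000118), and it passed within hippocampus (0.79 ± 0.18) and within cortex (0.52 ± 0.16) alone.

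Herpud1 (ENSMUSG00000031770, chromosome 8, 94386438 to 94395377, plus strand) encodes HERP, a membrane protein of the complex that passes misfolded proteins to degradation, and is a textbook target of ER stress. Its hippocampal level was 30.3 CPM in the control library and 35.9, 49.3, 35.1 and 28.4 CPM from 3 days to 3 weeks. From 8 to 20 weeks it was 36.5, 35.6, 42.2 and 34.5 CPM. Cortex had 39.8 CPM in the control library, 42.0, 51.2, 39.4 and 42.8 CPM from 3 days to 3 weeks, and 50.4, 48.7, 45.4 and 41.9 CPM from 8 to 20 weeks. In both tissues the highest value was that of 5 days, and the sets overlapped, with a log2 difference of 0.0005 ± 0.096 (edgeR adjusted p = 0.997). The sign of this difference turned with total counts alone (-0.19), again without a call.

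The promoter of Herpud1 is shown because the gene carries a different arrangement of the same elements and did not follow the chaperones. The ERSE-II, searched as ATTGG, any base and CCACG, was found in 0.0365% of windows. Herpud1 had it at -52 to -42. A core of the element that CHOP and ATF4 bind together, searched as TGATGNAAN (3.95% of windows), lay at -113 to -105 on the opposite strand. Both are in capitals in chr8:94386179-94386428 of GRCm38.p6.
Herpud1: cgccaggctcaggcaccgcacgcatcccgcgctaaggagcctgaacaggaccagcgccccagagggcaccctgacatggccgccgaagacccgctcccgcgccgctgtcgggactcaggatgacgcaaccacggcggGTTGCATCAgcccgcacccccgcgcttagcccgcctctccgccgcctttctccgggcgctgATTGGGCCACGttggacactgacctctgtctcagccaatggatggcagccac

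Xbp1 (ENSMUSG00000020484, chromosome 11, 5520659 to 5525893, plus strand) encodes the transcription factor that IRE1 activates by splicing, and its transcription is itself raised under ER stress. Hippocampal libraries had 41.3 CPM in the control, 62.2, 56.3 and 53.8 CPM at 3, 5 and 7 days, 35.6 CPM at 3 weeks and 33.5 to 44.7 CPM later. Cortical libraries had 48.1 CPM in the control, 56.5, 70.6 and 38.8 CPM at 3, 5 and 7 days, 50.9 CPM at 3 weeks and 43.6 to 51.7 CPM later. The first-week libraries of hippocampus were the highest of that tissue, whereas in cortex the library of 7 days was the lowest. The log2 difference between the sets was 0.30 ± 0.11 (edgeR adjusted p = 0.0328), and it was lost without the libraries of 3 days (0.24, edgeR adjusted p = 0.112), without those of 5 days (0.20, edgeR adjusted p = 0.169) and without the controls (0.31, edgeR adjusted p = 0.0523). It was also lost in hippocampus alone (0.41, edgeR adjusted p = 0.0710), in cortex alone (0.18, edgeR adjusted p = 0.347), with limma-voom (0.26, adjusted p = 0.0637) and with limma-voom and exposure time as a block (0.26, adjusted p = 0.0657).

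Atf4 (ENSMUSG00000042406, chromosome 15, 80255184 to 80257541, plus strand) encodes the main transcription factor of the integrated stress response and was the 1 member that was lower in the early set. Hippocampal Atf4 was at 134 CPM in the control library, at 121, 119, 107 and 133 CPM from 3 days to 3 weeks, and at 124, 116, 169.5 and 139 CPM from 8 to 20 weeks. The cortical libraries held 171 CPM in the control, 143, 129.5, 172 and 165 CPM up to 3 weeks, and 173, 187, 168 and 191 CPM afterwards. The sets overlapped in both tissues. The log2 difference of -0.21 ± 0.07 (edgeR adjusted p = 0.0311) was not past the threshold without the libraries of 3 days (-0.19, edgeR adjusted p = 0.0707) or of 5 days (-0.17, edgeR adjusted p = 0.0903). It was not past it in hippocampus alone (-0.20, edgeR adjusted p = 0.225) or cortex alone (-0.22, edgeR adjusted p = 0.103), so the values stayed near that of all libraries.

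Ddit3 (ENSMUSG00000025408, chromosome 10, 127290774 to 127296288, plus strand) encodes CHOP, a transcription factor induced by ATF4. In hippocampus it lay between 54.6 CPM at 8 weeks and 69.1 CPM at 16 weeks, with 55.7 CPM in the control library. Cortical libraries lay between 67.1 CPM at 7 days and 85.9 CPM at 5 days, with 74.3 CPM in the control. The libraries of the early set, at 56.1, 58.1, 65.3 and 66.3 CPM in hippocampus and 69.0, 85.9, 67.1 and 77.3 CPM in cortex, overlapped with the others in both tissues. The log2 difference between the sets was 0.07 ± 0.07 (edgeR adjusted p = 0.473), and with total counts alone it was -0.12, also without a call.

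The last 68 bases of Ddit3 overlap the 3′ end of Mars on the opposite strand (chromosome 10, 127296221 to 127311786), the gene of methionyl-tRNA synthetase. Reads from the shared end cannot be assigned without strand, and whether the authors' counting used strand is not given in the sources used here. The counts of the pair stayed close: the ratio of Ddit3 to Mars was 0.856 at the lowest, 0.930 at the median and 1.15 at the highest over the 18 libraries. In every hippocampal library but that of 3 weeks Mars had the higher count. In cortex Ddit3 had the higher count in the 4 libraries of the early set, and Mars in the other 5. Mars did not pass in the comparison of the sets (-0.07 ± 0.07, edgeR adjusted p = 0.414). How much of the Ddit3 count comes from Mars was not tested, and the values of Ddit3 are uncertain to that extent.

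**Figure D2:**
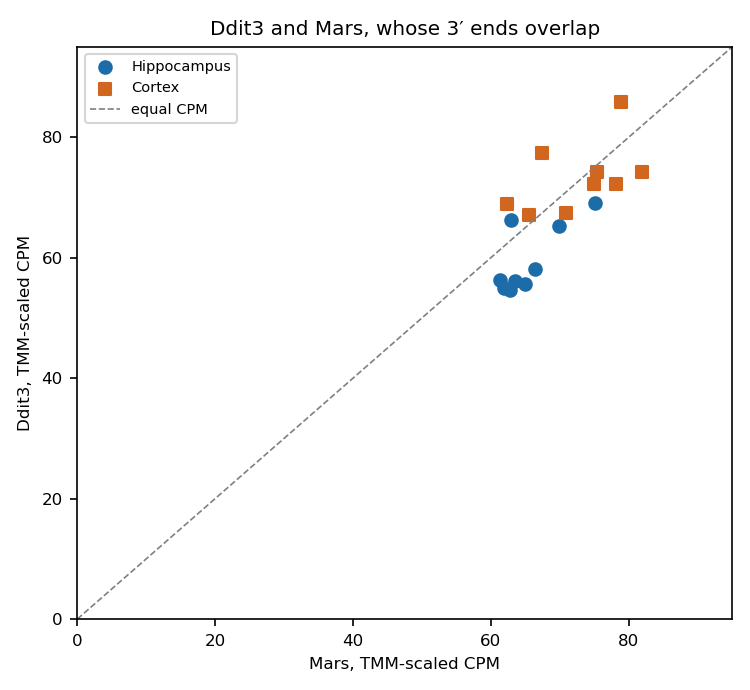
TMM-scaled CPM of Ddit3 (y axis) and Mars (x axis) in the 18 libraries, both axes from 0, with circles for hippocampus, squares for cortex and a dashed line of equal CPM. Points are single pooled libraries and lie close to the line, with ratios of 0.856 to 1.15.

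Trib3 (ENSMUSG00000032715, chromosome 2, 152337422 to 152344032, minus strand) encodes a pseudokinase that CHOP and ATF4 induce. It had 61 counts over all 18 libraries: 5 libraries had 0, 5 had 1 to 3, and 8 had more than 3. The highest count was 11, in the hippocampus at 3 weeks, and the control libraries had 3 counts in hippocampus and 6 in cortex. The hippocampal libraries of 3, 5 and 7 days all had 0 counts and the cortical ones 0, 5 and 2. At this depth no difference in Trib3 was detectable, and a library with 0 allows up to 3 counts.

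The other genes of the pathway were described from a list of 81 genes in 6 roles, all of which are in the files. Between the sets 20 of the 77 tested were higher in the early set and 10 lower, with a median log2 difference of 0.09, against 20.4% and 19.2% of all genes and a median of -0.00019. The largest difference was that of Ppp1r15b, which encodes CReP, the constitutive subunit that directs a phosphatase to eIF2α. It was at 164 to 349.7 CPM in the early set and at 39.2 to 64.5 CPM in the other libraries (log2 difference 2.38 ± 0.13, edgeR adjusted p = 1.9e-12). Canx, the membrane-bound relative of calreticulin, was at 326 to 397 CPM and 204 to 268 CPM (0.63 ± 0.06, edgeR adjusted p = 1.1e-08). Sec61g, a subunit of the translocation channel, was at 69.7 to 99.7 CPM and 46.7 to 56.5 CPM (0.72 ± 0.07, edgeR adjusted p = 4.0e-08). Other genes of the list were separated the other way in both tissues: Sec61a1, the main subunit of the same channel, was at 40.7 to 59.98 CPM in the early set and 65.9 to 78.1 CPM in the others (-0.50 ± 0.07, edgeR adjusted p = 9.5e-06). Os9, a lectin of ER-associated degradation, had -0.30 ± 0.05, and Ufd1l, a cofactor of the segregase p97, had -0.32 ± 0.07 (edgeR adjusted p = 0.000135 and 0.000409).

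By role, none of the 5 tested genes of the sensors and the proteases that activate ATF6 was higher and 2 were lower. Of the PERK and integrated stress response list 2 of 18 were higher and none was lower. Among other ER chaperones 3 of 12 were higher, among other disulphide enzymes 1 of 10, and none of either was lower. Of the genes of ER-associated degradation 7 of 17 were higher and 5 lower. Translocation and membrane genes gave 7 higher and 3 lower of 15. Of all genes 20.4% were higher and 19.2% lower in this comparison, and each role holds few genes. Whether any role departs from these shares was not tested.

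**Figure D3:**
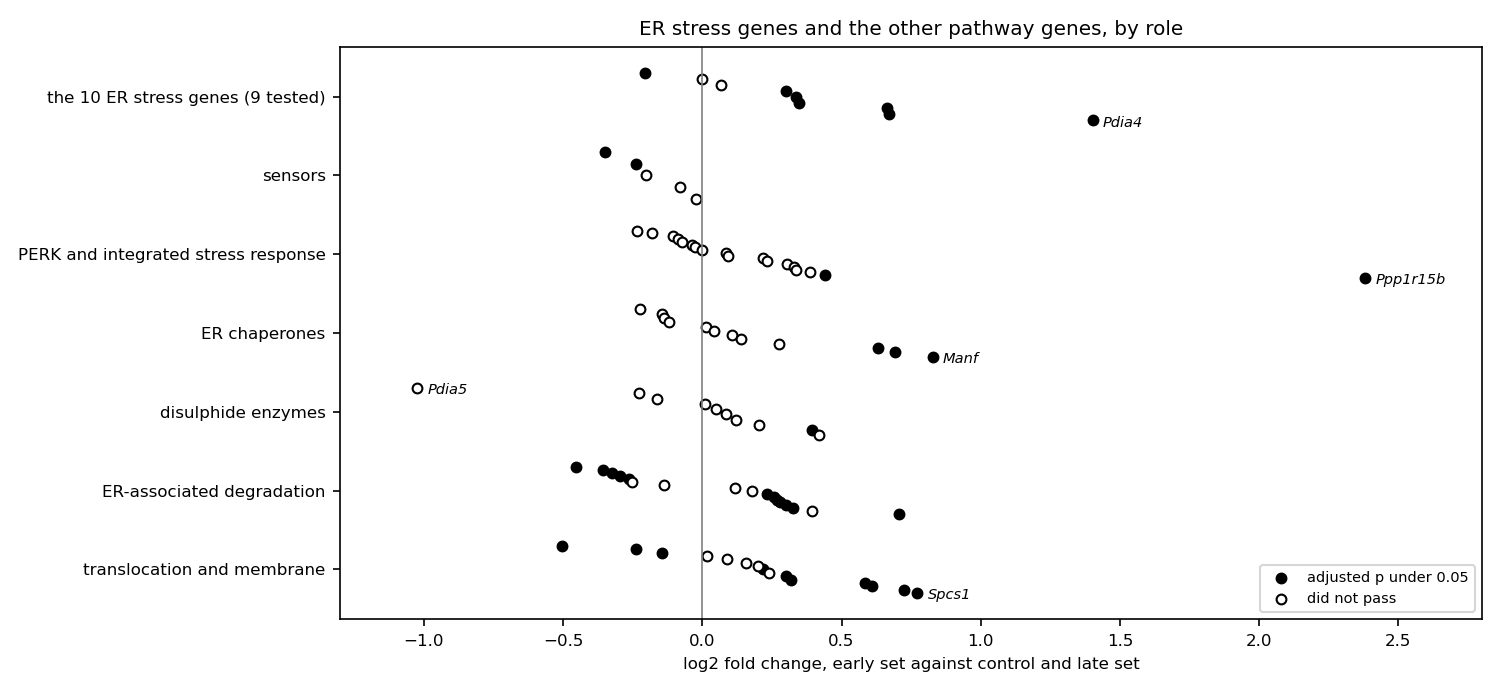
Log2 difference between the 8 libraries of the early set and the 10 control and late libraries (x axis) for the 9 tested members and 77 other pathway genes by role (y axis), filled where edgeR's adjusted p was under 0.05. Genes beyond 0.75 in either direction are named: Ppp1r15b (2.38) lies farthest to the right, then Pdia4 (1.40), and the sensors lie at or below 0.

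Some cell type markers moved with the sets too, against 20.4% of all genes higher and 19.2% lower. The summed lists of neurons (general, hippocampal and cortical), oligodendrocytes, endothelium and striatum overlapped between the sets in both tissues. So did those of thalamus and habenula, hypothalamus, blood leukocytes and red blood cells. Of 6 astrocyte genes 5 were higher in the early set, with summed levels of 5233 to 5542 CPM against 4102 to 4458 CPM in hippocampus, and 4032 to 5207 CPM against 4015 to 4343 CPM in cortex. None of these genes was at 0 in any library. Of 6 microglia genes 2 were higher and 1 lower, and their sum did not overlap in cortex (304 to 377 CPM against 284 to 301 CPM) but did in hippocampus (286 to 359 CPM against 252 to 348 CPM). Of 5 red blood cell genes 4 were higher, and of the 6 nuclear and RNA quality genes 5 were lower (median log2 difference -2.31). The choroid plexus list, of a secretory epithelium rich in ER, went different ways in the tissues. In hippocampus it summed to 8749 CPM at 3 days and to 198 to 582 CPM in the other early libraries, against 180 CPM in the control and 2570 to 5980 CPM at 8 to 20 weeks. In cortex it summed to 5655, 287, 876 and 2719 CPM from 3 days to 3 weeks, against 1675 CPM in the control and 259 to 459.9 CPM at 8 to 20 weeks. From 0 to 5 of its 12 genes were at 0 in a library. Without both libraries of 3 days 5 members were called, all higher (Pdia4 1.34, Hsp90b1 0.66, Dnajb9 0.67, Calr 0.27 and Hspa5 0.23), against 39.4% of all genes in that fit, 20.1% higher. That fit was chosen after seeing the data. It still holds libraries with high choroid plexus sums, such as 2719 CPM in cortex at 3 weeks and 5980 CPM in hippocampus at 16 weeks. The part of astrocyte, microglia, choroid plexus, blood and nuclear RNA in the members' differences was not tested.

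The comparison of short-term UPM with control asks what the first week of dosing did. Of the 9 members 2 were higher over 6 short-term against 2 control libraries, and none was lower, against 1.84% of 14209 genes higher and 2.51% lower (4.35% in either direction). Pdia4 was higher by 1.56 ± 0.23 (edgeR adjusted p = 0.0016) and Hsp90b1 by 0.70 ± 0.15 (edgeR adjusted p = 0.0174). Dnajb9 had 0.73 ± 0.25, Hspa5 0.39 ± 0.17, Xbp1 0.31 ± 0.21, Calr 0.29 ± 0.15, Herpud1 0.25 ± 0.20, Ddit3 0.02 ± 0.16 and Atf4 -0.24 ± 0.15, none past the threshold (edgeR adjusted p from 0.113 to 0.965). Without the hippocampal control library no member passed, with Pdia4 at 1.43 and Hsp90b1 at 0.90, and without the cortical one Pdia4 alone did, with Hsp90b1 at 0.55. These fits called 0.283% and 0.248% of all genes. All short-term libraries are of the early set and both controls are not, so an effect of UPM and the difference between the sets cannot be told apart.

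Of the 77 other pathway genes tested 6 were higher in short-term UPM and none was lower, against 1.84% of all genes higher and 2.51% lower. As for the members, an effect of UPM and the difference between the sets cannot be told apart here. The 3 with the smallest p were Ppp1r15b (2.52 ± 0.25), Canx (0.69 ± 0.14) and Manf (0.85 ± 0.19), a secreted protein of the ER that is induced by ER stress (edgeR adjusted p = 3.8e-05, 0.0119 and 0.0226). All 3 were also higher in the comparison of the sets, which shares these libraries.

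**Figure D4:**
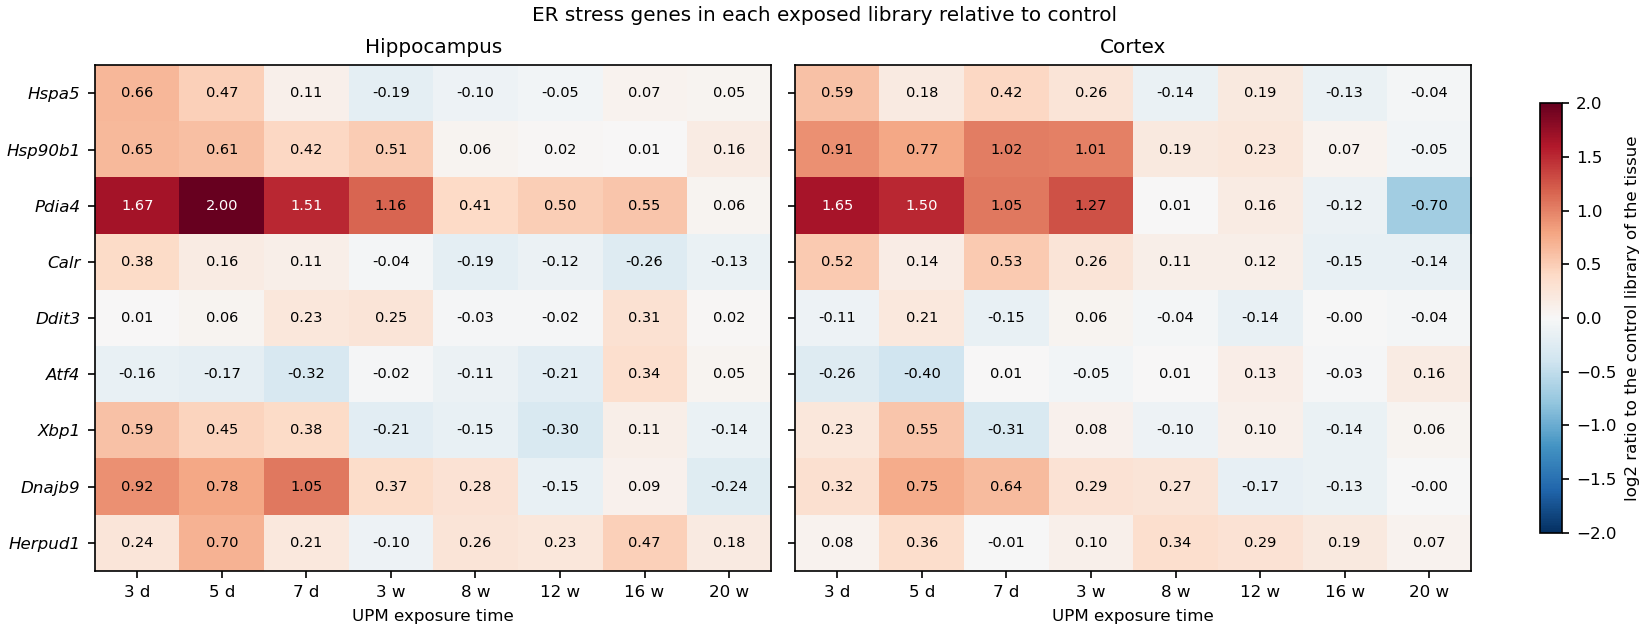
Log2 ratio of each exposed library to the control library of its tissue for the 9 members with enough counts (rows) at 8 exposure times (columns), red for higher and blue for lower on a scale from -2 to 2. Each cell rests on 2 pooled libraries, with no replicate; Pdia4 is darkest, at 4.01-fold in hippocampus at 5 days.

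Set against the control library of its tissue, Pdia4 was at least 2-fold higher in all 8 libraries of the early set, from 2.08-fold in cortex at 7 days to 4.01-fold in hippocampus at 5 days. Dnajb9 passed 2-fold once (2.07-fold in hippocampus at 7 days), and Hsp90b1 in cortex at 7 days and 3 weeks (2.02-fold at both). Of the 10322 genes with a mean of at least 50 counts, 0.165% were 2-fold higher in all 8 early libraries, as 1 of 9 members was, and 12.7% in any of them, as 3 of 9 members were. No member was 2-fold lower in any early library, against 18.6% of genes. None reached 2-fold in either direction in a library of 8 to 20 weeks, against 4.06% of genes higher and 2.12% lower. In cortex at 20 weeks Pdia4 was at 0.616-fold of the control.

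Within the late set, exposure and control are not split by library set. The labels give no duration for the controls, so exposure and age at sampling cannot be told apart here. Over 8 libraries of 8 to 20 weeks against 2 controls, 0 of 9 members passed edgeR's test, as did 0% of 14465 genes (676 had an unadjusted p under 0.05; neither DESeq2 nor limma-voom called any). Pdia4 had 0.13 ± 0.20, Hsp90b1 0.09 ± 0.08, Calr -0.09 ± 0.09, Xbp1 -0.06 ± 0.11, Atf4 0.06 ± 0.11, Ddit3 0.02 ± 0.10, Dnajb9 0.01 ± 0.17 and Hspa5 -0.01 ± 0.09. Herpud1 had the largest of these differences, 0.26 ± 0.11, with an adjusted p of 0.994. Its 8 libraries of 8 to 20 weeks were all above the control of their tissue. These signs rest on 2 control libraries, and the share of all genes with this pattern was not counted. Of the other pathway genes 0 of those tested passed, and the smallest p belonged to Nupr1 (0.73 ± 0.28), a stress-induced chromatin protein. Over all UPM times against control, edgeR called 0 members and 0% of 14865 genes (272 with an unadjusted p under 0.05; neither of the other tools called any), with Pdia4 at 0.97 ± 0.53.

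The comparison of 3 weeks with 3 to 7 days lies inside the early set. No member passed (0% of 14036 genes by edgeR, 606 with an unadjusted p under 0.05; 13 by DESeq2 and 0 by limma-voom). Hsp90b1 was level at 0.01 ± 0.14. Hspa5 (-0.39 ± 0.18), Pdia4 (-0.37 ± 0.21), Xbp1 (-0.40 ± 0.22), Dnajb9 (-0.44 ± 0.24), Herpud1 (-0.28 ± 0.21) and Calr (-0.22 ± 0.15) had values below 0 without a call, as did Atf4 (0.16 ± 0.15) and Ddit3 (0.09 ± 0.16) above 0. The pathway gene with the smallest p was Vimp (-0.51 ± 0.14), which encodes selenoprotein S of the degradation complex.

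**Figure D5:**
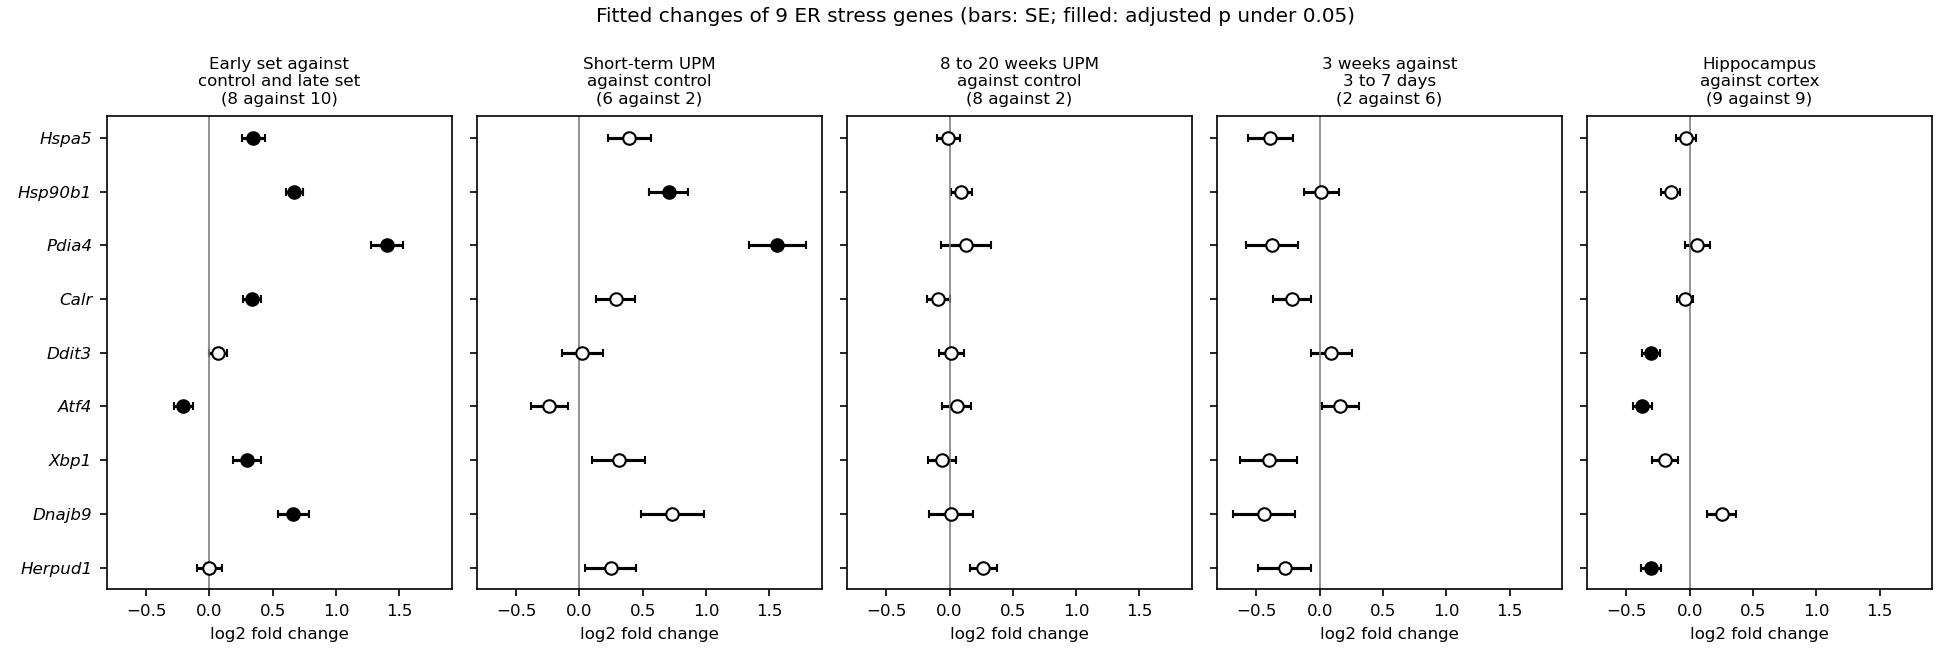
Fitted log2 fold change (x axis) with its standard error for the 9 tested members (y axis) in 5 comparisons, with the number of libraries on either side in the titles; filled points had an edgeR adjusted p under 0.05. Filled points appear in the comparison of the sets (7), of short-term UPM with control (2) and of the tissues (3), and in neither of the others.

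Long-term against short-term UPM was compared in each tissue. In hippocampus no member passed (0.273% of 13908 genes did, 0.209% higher and 0.0647% lower): Pdia4 had -1.16 ± 0.22, Dnajb9 -0.83 ± 0.20 and Xbp1 -0.59 ± 0.14, with edgeR adjusted p of 0.0517, 0.0584 and 0.0546. DESeq2 called 5 members lower there (Pdia4, Xbp1, Dnajb9, Calr and Hspa5) and 8.3% of all genes, and limma-voom called no gene. In cortex no member and 0% of 13762 genes passed (2921 with an unadjusted p under 0.05; DESeq2 called 726 genes and limma-voom 9), with Pdia4 at -1.15 ± 0.33 (edgeR adjusted p = 0.110); Pdia4 was the 1 member that DESeq2 called (DESeq2 adjusted p = 0.0239). The 3-week library is the 1 long-term library of the early set in each tissue. Without it 6 members were lower in hippocampus (Pdia4 -1.34, Dnajb9 -0.91, Xbp1 -0.57, Hsp90b1 -0.49, Hspa5 -0.42 and Calr -0.38) and 5 in cortex (Pdia4 -1.56, Hsp90b1 -0.79, Dnajb9 -0.59, Hspa5 -0.43 and Calr -0.41). In these fits 16.3% of all genes were called in hippocampus, 8.32% lower, and 22.6% in cortex, 11.8% lower, and the comparison then runs wholly between the sets. Of the pathway list none passed in either tissue; Manf had the smallest p in hippocampus (-0.83 ± 0.16) and Ppp1r15b in cortex (-1.81 ± 0.33). The difference of this contrast between the tissues was tested as an interaction and called 0 members and 0% of 14427 genes by edgeR (1123 with an unadjusted p under 0.05; 25 by DESeq2 and 0 by limma-voom). For Pdia4 it was -0.01 ± 0.45 and for Xbp1 -0.41 ± 0.22.

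Over 8 to 20 weeks of dosing, a linear trend was fitted per 10 weeks. All mice were 7 weeks old at the start, so weeks of dosing and age rise together and cannot be told apart. No member passed (0.286% of 13968 genes did, 0.0143% rising and 0.272% falling). Pdia4 had the steepest member trend, -0.41 ± 0.16 per 10 weeks (edgeR adjusted p = 0.408), falling from 25.4 and 23.3 CPM at 8 weeks to 19.9 and 14.1 CPM at 20 weeks in hippocampus and cortex, with the hippocampal libraries of 12 and 16 weeks above that of 8 weeks. With the 3-week libraries included it was -0.77 and passed (edgeR adjusted p = 0.0324). Dnajb9 had -0.28 ± 0.17, Atf4 0.17 ± 0.11 and the other members between -0.12 and 0.08. Ddit4, an inhibitor of mTORC1 that stress induces, was the pathway gene with the smallest p (-0.85 ± 0.22, no call).

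Hippocampus and cortex were compared with exposure time as a factor over 9 libraries each. The transcription factors Atf4 (-0.37 ± 0.08, edgeR adjusted p = 0.0022) and Ddit3 (-0.30 ± 0.07, edgeR adjusted p = 0.0062) and the degradation gene Herpud1 (-0.31 ± 0.08, edgeR adjusted p = 0.0127) were lower in hippocampus, and no member was higher. Of all 14865 genes 16.9% were called, 7.6% higher and 9.26% lower. Between libraries of the same time, Atf4 was lower in hippocampus at 8 of 9 times and Herpud1 and Ddit3 at 9 of 9. Mars had -0.16 ± 0.07 in this comparison (edgeR adjusted p = 0.134). The chaperones Hspa5 (-0.03 ± 0.08), Calr (-0.03 ± 0.06), Hsp90b1 (-0.15 ± 0.08) and Pdia4 (0.06 ± 0.10) did not pass, nor did Xbp1 (-0.20 ± 0.10) and Dnajb9 (0.25 ± 0.12). With the 8 libraries of the early set alone none of the 9 passed, against 4.67% of all genes in that fit, and the values of Atf4, Ddit3 and Herpud1 were -0.33, -0.27 and -0.25.

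Among the 81 genes of the pathway list 4 were higher and 3 lower in hippocampus, against 7.6% of all genes higher and 9.26% lower. Ddit4 (0.60 ± 0.13), Nupr1 (-1.21 ± 0.28) and Tmbim6 (0.26 ± 0.07), an ER membrane protein also called BAX inhibitor-1, had the smallest p (edgeR adjusted p = 0.0046, 0.0054 and 0.0097).

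How the members varied apart from tissue and set was described by correlating log2 CPM over the 18 libraries after subtracting the mean of each tissue and set. The libraries share processing and depth differences, so these values are a description. Over the 36 pairs of the 9 members r ran from -0.78 (Calr and Ddit3) to 0.73 (Pdia4 and Herpud1), with a median of 0.14. The 6 pairs among Hspa5, Hsp90b1, Pdia4 and Calr had 0.21 to 0.71, the highest being Hspa5 with Calr. Among the 6864 other genes of at least 20 CPM, the one most like Xbp1 was Manf (r = 0.90). Those most like Ddit3 were its neighbour Mars and, level with it, Plekho1 (0.81 each). Those most like Hspa5 were Sun1 (0.86), Asb1 (0.85) and Trpm7 (0.81). For the other members they were Mpp5 for Hsp90b1 (0.77), Parva for Pdia4 (0.88), Camsap2 for Calr (0.87), Fam134a for Atf4 (0.83), Vcan for Dnajb9 (0.79) and Sertad2 for Herpud1 (0.86).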

How the data were processed

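The deposited values are whole-number read counts per gene symbol, 1 file per library, for which the submitters' processing notes name Bowtie2, bedtools, edgeR and the build mm10; tool versions, the gene annotation and the strand setting are not given in the sources used here. The libraries are QuantSeq 3′ mRNA libraries of pooled RNA with integrity above 7.0, read as single ends of 75 bases, per the labels' protocols. Counts of 44 repeated lines were summed and 27 symbols turned into dates in 2 files were restored by row order. Genes were filtered with filterByExpr, scaled with TMM and tested with the quasi-likelihood test of edgeR 4.0.16 in R 4.3.3, all genes at once; adjusted p-values are Benjamini-Hochberg values. Alternatives were DESeq2 1.42.0, limma-voom (limma 3.58.1), other scaling, no filter, left-out libraries and exposure time as a block. Log2 CPM for correlations had a prior count of 2. Fits were tested on simulated counts with known log2 changes of 1 or 0.4, in 100 genes each. Short-term UPM against control recovered 42 and 0 of them, and long-term against short-term UPM in hippocampus 47 and 1. For 8 to 20 weeks against control 85 and 11 were recovered, for the sets 98 and 38, and for the tissues 96 and 32. The changed genes had a mean of at least 50 counts, and the simulation held no other change and no effect of tissue or time. Changes of 0.4 were mostly missed there, so a gene without a call can have changed. The recovery does not describe comparisons in which many genes were called, such as that of the sets (39.6% of genes). In that comparison members with smaller differences passed, such as Atf4 (-0.21) and Xbp1 (0.30). Total counts of 5.43 to 8.97 M make a floor of 3 counts for a library at 0, for counting error only. No library was a copy of another. Gene positions are from GENCODE M21 and promoters from RefSeq (GRCm38.p6), matched by symbol for 10 of 10 members. The members, gene lists, library sets and tests were chosen with earlier results of these data known. For each member the most similar gene by correlation was named (3 for Hspa5, and Plekho1 beside Mars for Ddit3). Of the pathway list the 3 with the smallest p were named. Mars, Pdia5, Spcs1, Sec61a1, Os9, Ufd1l and other named genes outside this rule were chosen after their values were seen. Of the pathway list, Ero1a, Ero1b, Selenos and Ufd1 were matched by older symbols.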

Additional observations from a re-analysis of the deposited data

Results flagged for a closer look

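Of 20 groups of 5 long-term libraries (10 genes in each tissue), 3 had a library far from the other 4 by Dixon's test at 95%, which chance gives about 1 time in 20 groups. All 3 were the library of 3 weeks: Hsp90b1 at 391 CPM in hippocampus and 539 CPM in cortex, and Pdia4 at 56.0 CPM in cortex. The remaining long-term libraries of these genes lay at 277 to 308, 258 to 313 and 14.1 to 25.8 CPM. The library of 3 weeks is the 1 long-term library of each tissue in the early set, and the part of the set in these values was not tested.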

How the results depend on the processing

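Members called in each of 10 comparisons were counted under 137 alternatives, of which 122 left the count within 1.5 times. Many of the 122 had 0 members in both fits, as in the tissue interaction and in 3 weeks against 3 to 7 days. UPM against control, at all times or at 8 to 20 weeks, gave the same. A count of 0 cannot fall, so the 122 are no measure of stability. Between the early set and the other libraries 7 were called, but 4 with total counts alone and 4 in hippocampus alone (39.6%, 42.7% and 21.7% of all genes); counts without 3 days, 5 days, 7 days or the controls, chosen after seeing the data, were 5, 5, 7 and 6 (39.4%, 37.8%, 38.9% and 35.5% of genes). In the tissue comparison 3 became 0 with the early set alone (16.9% and 4.67% of genes). For long-term against short-term UPM in hippocampus, 0 (0.273% of genes) became 5 with DESeq2 (8.3%), 1 with total counts alone (4.39%), 1 with no filter (1.35%) and 6 with 8 to 20 weeks only (16.3%), and 0 to 6 with each library left out in turn. The same comparison in cortex gave 1 with DESeq2 (5.28%), 5 with 8 to 20 weeks only (22.6%) and 0 to 5 with each library left out. For short-term UPM against control 2 (4.35% of genes) became 1 with total counts alone (6.43%). Leaving out either control library, which leaves 1 control, lowered the count. The trend called 1 over 3 to 20 weeks (3.46% of genes, 2.45% falling) in place of 0 (0.286%). The fits within a tissue, within the early set or without 3 weeks hold fewer libraries. Without 3 weeks, long-term against short-term UPM runs wholly between the sets, and more genes were called. The cause of the shifts was not tested. Among 1233 member values under an alternative, 32 passed the threshold anew, 23 no longer passed, and none past it changed sign; 83 changed sign without a call in either fit. Each exposure time has 1 library of each tissue, and the edgeR comparison of the sets took these as independent. With exposure time as a random block in limma-voom no count changed by over 1.5 times. Xbp1 lost its call between the sets with the block, as in limma-voom without it. Depth limits Trib3, and pooled libraries without replicates at a time limit every comparison.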
